A study of Rattus norvegicus with 12 samples.

Results

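The genes described are splicing factors and other RNA-binding proteins of rat liver, chosen by symbol with earlier results of these data known. They comprise every probe set annotated to exactly 1 gene symbol that starts with Srsf, Hnrnp, Rbm, Sf3a, Sf3b or Snrp, or that equals Cirbp, G3bp1, G3bp2, Tra2a or Tra2b. The rule found 98 probe sets of 69 genes among 15866 probe sets tested, in which 10411 genes have a symbol of their own. A further 10 probe sets carry such a symbol together with other symbols and were left out, among them all those of Srsf3 and Hnrnpk. The livers came from 12 male Brown Norway rats of 150 to 170 g. Controls received water (n = 4) and treated rats D-penicillamine, a copper-binding thiol drug, at 150 mg/kg in 1 mL by oral gavage (n = 8), and livers were taken at 6 h. Both groups are intact animals of 1 inbred strain, with 1 array per rat.

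A pre-mRNA is spliced by small nuclear ribonucleoproteins, which carry Sm proteins encoded by Snrp genes, while the SF3A and SF3B complexes help the U2 particle to hold the branch point. SR proteins (Srsf genes) and the related TRA2 proteins mostly favour the use of nearby exons, and hnRNPs often oppose them. Many of these regulators limit their own mRNA through exons that lead to its decay, so their levels are tied to splicing itself. G3BP1 and G3BP2 build stress granules, and CIRBP and RBM3 are known for induction by mild cold.

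After D-penicillamine, 69 of the 98 member probe sets had a mean below that of vehicle, 28 above and 1 at the same value, where 50.8% of all probe sets tested lay below. The median difference of the members was -0.048 on the log2 scale, against -0.0025 over all probe sets. None of the 98 passed an adjusted p of 0.05 in limma, and the smallest adjusted p among them was 0.556, where 0% of all probe sets passed. An unadjusted p under 0.05 was reached by 13 members in the lower direction (13.3%, against 3.48% of all probe sets) and by 1 in the higher direction (1.02%, against 2.68%). The 13 stand for 10 genes, since Srsf1, Hnrnpa2b1 and Rbm39 enter by more than 1 probe set. The groups did not overlap, with every treated rat below every vehicle rat, in 4 members (4.08%, against 0.378% of all probe sets). They are probe sets of Rbm39, G3bp2, Srsf1 and Hnrnpu. In 0 members did every treated rat lie above every vehicle rat, where 0.195% of all probe sets did. The 5 genes that the rule names singly gave 2 of the 13 lower probe sets, the 1 higher one and 1 of the 4. The rule was set with earlier results of these data known, so the shares are described and not tested. The shares count probe sets read in the same 12 rats, several of them of 1 gene, so the members are not independent of each other. With the group means removed, the 8 lower members with the smallest p had a median pairwise correlation of 0.190 (-0.448 to 0.694), given as a description. Of their 28 pairs 20 were positive.

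Most of the differences were small. In 97 of the 98 members the 95% interval excluded any change of 1.5-fold or more, up or down. The same held for 15650 of all 15866 probe sets tested, so it is not particular to these genes. The exception among the members was Rbm39 probe set 1399101_at.

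**Figure D1:**
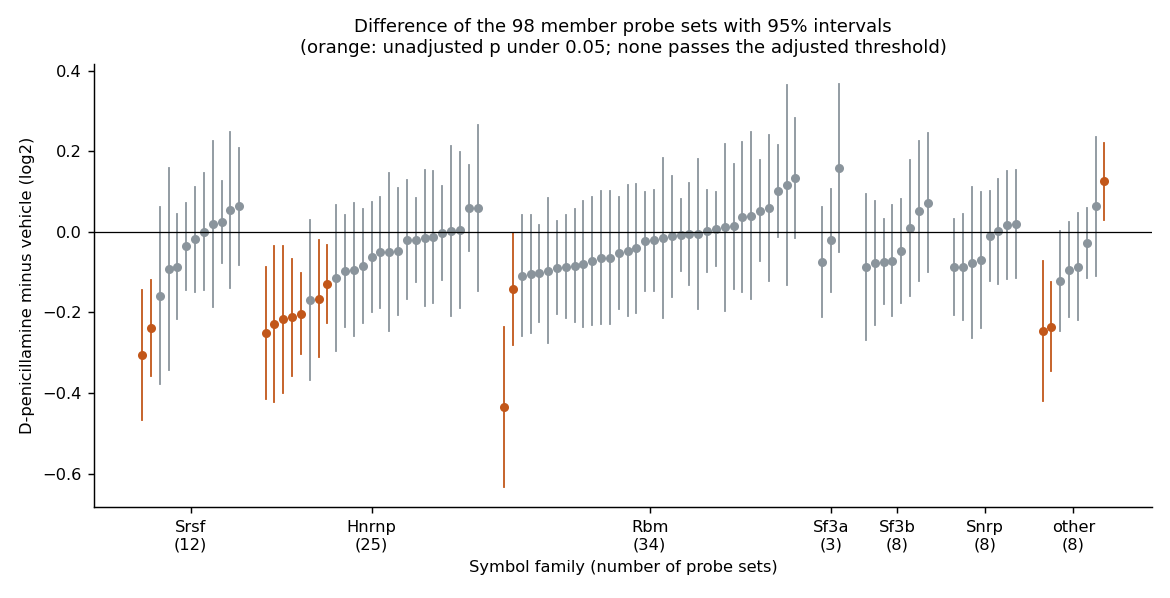
Difference between D-penicillamine (n = 8) and vehicle (n = 4) on the log2 scale for the 98 member probe sets, in order within each symbol family, with 95% intervals from limma. Orange marks an unadjusted p under 0.05. The Hnrnp family holds 7 of the 13 lower orange points, and Cirbp, in the last group, is the 1 higher one.

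The stretches before the transcription start are shown for the 4 genes whose groups did not overlap and for Cirbp, the 1 member with an unadjusted p under 0.05 in the higher direction. They are the 250 bases upstream of the start of a RefSeq transcript in build GRCr8, 5′ to 3′ on the gene's strand. For G3bp2, which has 3 listed starts, the first is shown. Capitals mark matches, on either strand, to CCAAT (NF-Y), TGACG (the core of a cAMP response element), CACGTG (an E-box) and GGGCGG (a GC box).
Rbm39, chr3:165156236-165156485, minus strand: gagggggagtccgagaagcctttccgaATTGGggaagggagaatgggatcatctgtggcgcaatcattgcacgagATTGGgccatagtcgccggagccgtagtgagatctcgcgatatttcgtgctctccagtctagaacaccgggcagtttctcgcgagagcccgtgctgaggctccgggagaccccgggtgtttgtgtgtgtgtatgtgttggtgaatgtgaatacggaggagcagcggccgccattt
G3bp2, chr14:16216434-16216683, plus strand: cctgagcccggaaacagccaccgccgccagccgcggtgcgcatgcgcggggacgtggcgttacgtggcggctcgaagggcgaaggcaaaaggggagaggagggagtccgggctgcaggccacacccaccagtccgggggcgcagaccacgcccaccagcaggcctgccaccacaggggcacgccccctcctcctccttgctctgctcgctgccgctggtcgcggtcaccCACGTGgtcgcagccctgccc
Srsf1, chr10:73336248-73336497, plus strand: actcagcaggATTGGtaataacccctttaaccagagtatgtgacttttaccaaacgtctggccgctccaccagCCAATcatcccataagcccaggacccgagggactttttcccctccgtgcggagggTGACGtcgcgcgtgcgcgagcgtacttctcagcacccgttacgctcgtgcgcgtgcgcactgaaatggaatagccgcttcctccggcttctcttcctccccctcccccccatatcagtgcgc
Hnrnpu, chr13:92618581-92618830, minus strand: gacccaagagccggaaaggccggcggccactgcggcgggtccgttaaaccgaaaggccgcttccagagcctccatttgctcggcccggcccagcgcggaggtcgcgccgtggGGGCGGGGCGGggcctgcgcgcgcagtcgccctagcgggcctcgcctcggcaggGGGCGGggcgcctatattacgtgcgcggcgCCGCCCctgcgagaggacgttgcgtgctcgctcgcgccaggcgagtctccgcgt
Cirbp, chr7:10189476-10189725, minus strand: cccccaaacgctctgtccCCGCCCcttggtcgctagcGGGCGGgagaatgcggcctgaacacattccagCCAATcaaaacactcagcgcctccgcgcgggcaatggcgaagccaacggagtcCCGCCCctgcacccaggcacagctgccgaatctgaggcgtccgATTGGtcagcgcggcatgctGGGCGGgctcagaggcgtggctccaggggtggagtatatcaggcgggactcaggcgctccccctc

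Rbm39 and Srsf1 hold 2 CCAAT matches each, and Srsf1 1 match to TGACG. Hnrnpu has 4 GC boxes and no other match, and G3bp2 1 E-box. Cirbp holds 2 CCAAT matches and 4 GC boxes. The CCGGAAG motif of ETS factors and TATAAA, which were searched as well, are in none of the 5 windows. Of the 69 genes, 65 have a listed promoter window, with 74 windows in all. CCAAT is in 52.7% of these windows and in 34.0% of the 33469 windows of all genes. TGACG is in 45.9% against 18.2%, GGGCGG in 54.1% against 30.5% and CCGGAAG in 21.6% against 7.27%. CACGTG is in 6.76% against 5.59% and TATAAA in 10.8% against 12.9%. The member windows hold a median of 19.5 CpG dinucleotides and all windows 5, so motifs rich in C and G meet a different base composition in the members. These matches describe the letters only.

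Rbm39 encodes a nuclear protein with an arginine-serine region that acts in splicing and as a coactivator of transcription. It had 4 probe sets. On 1399101_at, vehicle rats 1 to 4 read 8.11, 8.16, 8.22 and 8.09, and the treated rats ran from 7.34 to 7.92 with a median of 7.745. The highest treated rat was thus 0.17 below the lowest vehicle rat. The difference was -0.435 (SE 0.0931, 95% interval -0.634 to -0.236), or 1.35-fold lower, with an adjusted p of 0.556 in limma. The treated rats also spread more widely, with an SD of 0.202 against 0.0580 in vehicle rats, and D-penicillamine rat 8 was the lowest of all on this probe set.

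The 3 other probe sets of Rbm39 leaned the same way by less. Probe set 1379737_a_at read 8.24 ± 0.0735 in vehicle rats (SD, n = 4) and 8.10 ± 0.122 in treated rats (SD, n = 8), a difference of -0.141 (SE 0.0650). Probe set 1398993_at differed by -0.109 (SE 0.0700) and 1381967_at by -0.0963 (SE 0.0845), and on both the intervals included 0. Both depended on single rats, with 1398993_at at -0.0700 without D-penicillamine rat 8, and 1381967_at at -0.0504 without vehicle rat 3, -0.0582 without D-penicillamine rat 4 and -0.0124 without these last 2 rats. The unadjusted p of 1379737_a_at, 0.0464 in limma, was 0.147 without vehicle rat 2. Across the 12 rats the 4 probe sets varied together, with pairwise Pearson correlations of 0.588 to 0.844, which is given as a description of arrays that share their RNA. With the group means removed these were 0.531 to 0.926. Within a rat, 1399101_at stood -0.436 ± 0.0215 (SD, n = 4) from the mean of the other 3 in vehicle rats, with a range of -0.467 to -0.417. In treated rats this distance was -0.755 ± 0.118 (SD, n = 8), with a range of -0.937 to -0.603, so the ranges did not overlap. Rbm39 was singled out with its value on 1399101_at known, so this gap is described and not tested. Which transcripts each probe set detects is not given in the sources used here.

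**Figure D2:**
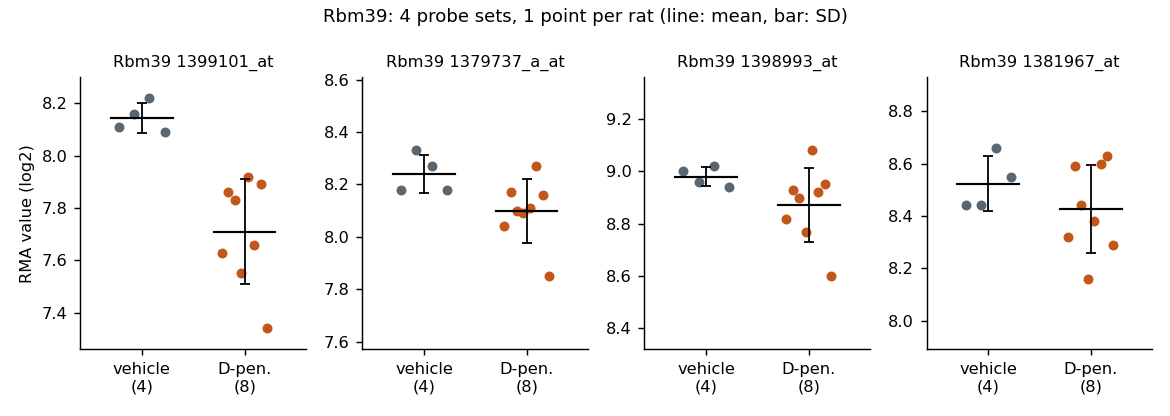
RMA values (log2) of the 4 probe sets of Rbm39, 1 point per rat, with the group mean as a line and the SD as a bar; all panels span the same number of log2 units. On 1399101_at all 8 treated rats lie below all 4 vehicle rats, while on the other 3 the groups overlap.

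Srsf1, the founding SR protein and a regulator of exon choice in most tissues, was lower on both of its probe sets. On 1374072_at vehicle rats 1 to 4 read 6.48, 6.52, 6.78 and 6.52. The treated rats ran from 6.02 to 6.44 with a median of 6.27, all below the vehicle rats. The difference was -0.306 (SE 0.0759, 95% interval -0.468 to -0.144, adjusted p = 0.556 in limma). On the brighter 1371581_at vehicle rats 1 to 4 read 8.67, 8.75, 8.83 and 8.61, and the treated rats 8.38 to 8.65 with a median of 8.455. Here D-penicillamine rat 2 reached into the vehicle range, and the difference was -0.239 (SE 0.0561, adjusted p = 0.556 in limma). Vehicle rat 3 was the highest of all rats on both probe sets, and without it the differences were -0.238 and -0.200.

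Of the 12 Srsf probe sets, which cover 7 genes, 7 were lower, 4 higher and 1 at the same mean, with a median of -0.0275. The 2 with an unadjusted p under 0.05 were those of Srsf1 (16.7%, against 3.48% of all probe sets). Srsf2, whose 1371838_at was the brightest of the family, read 9.94 ± 0.0435 in vehicle rats (SD, n = 4) and 9.92 ± 0.118 in treated rats (SD, n = 8), and its interval ran from -0.150 to 0.112. At the upper end stood Srsf6 at 0.0638 (SE 0.0680), which turned to -0.0119 without vehicle rat 3 and D-penicillamine rat 4. Srsf1 and Srsf6 were thus the extremes of the family.

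The TRA2 proteins bind purine-rich exon enhancers and are related to the SR family. Tra2b probe set 1370189_at read 8.86, 8.81, 9.11 and 8.90 in vehicle rats 1 to 4, and 8.47 to 8.98 in treated rats with a median of 8.655. Only D-penicillamine rat 6 lay above the vehicle mean. The difference was -0.246 (SE 0.0816, adjusted p = 0.693 in limma), and -0.183 without vehicle rat 3. It was -0.177 with the 3' minus 5' difference of control probe sets, a measure of RNA quality, in the model and -0.154 without both vehicle rat 3 and D-penicillamine rat 4 (unadjusted p = 0.0549 and 0.0642 in limma). The other probe set, 1370188_at, differed by -0.0938 (SE 0.0555). Tra2a, with readings near 5 and 1 probe set, differed by -0.123 (SE 0.0583), with an interval of -0.247 to 0.0020.

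Among hnRNPs, which coat nascent transcripts, 21 of 25 probe sets were lower and 4 higher, with a median of -0.0625. An unadjusted p under 0.05 in the lower direction was reached by 7 of the 25 (28.0%, against 3.48% of all probe sets) and in the higher direction by 0 (against 2.68%). The family contained 1 of the 4 members whose groups did not overlap (4.00% of its probe sets, against 0.378% of all).

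Hnrnpu encodes a large nuclear protein that binds both RNA and chromatin. On 1370171_at vehicle rats 1 to 4 read 6.79, 6.91, 6.87 and 6.74, and treated rats 6.51 to 6.70 with a median of 6.63. Every treated rat was below every vehicle rat, with a difference of -0.204 (SE 0.0471, adjusted p = 0.556 in limma). The mean of this probe set over all rats was 6.69. The brightest probe set of the gene, 1370170_at with a mean of 9.04, differed by -0.0038 (SE 0.0545). Probe set 1372823_at, with a mean of 6.48, differed by 0.0038 (SE 0.0907), so the gap belongs to 1 of 3 probe sets and not to the brightest.

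Hnrnpa2b1, a regulator of splicing and of RNA sorting, was lower on both probe sets. On 1398883_at vehicle rats 1 to 4 read 7.70, 7.89, 7.87 and 7.82, and treated rats 7.38 to 7.81 with a median of 7.585. D-penicillamine rat 6 reached into the vehicle range, and the other 7 did not. The differences were -0.251 (SE 0.0770, adjusted p = 0.693 in limma) and, on 1373540_at, -0.218 (SE 0.0859). Hnrnpa0, which binds AU-rich elements, read 8.77, 8.90, 9.03 and 8.87 in vehicle rats 1 to 4 and 8.46 to 8.85 in treated rats with a median of 8.685. The groups overlapped, with a difference of -0.213 (SE 0.0681, adjusted p = 0.693 in limma).

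Probe sets of Hnrnpr (-0.229, SE 0.0902), Hnrnpa1 (-0.166, SE 0.0681 on 1375612_at) and Hnrnpa3 (-0.129, SE 0.0452 on 1370872_at) complete the 7, and are named after their values were seen. The other 2 probe sets of Hnrnpa1, a close relative of Hnrnpa2b1, differed by -0.0488 and -0.0138. The 3 other probe sets of Hnrnpa3 differed by -0.115, -0.0938 and 0.0600. Its brightest, 1388119_at, read 9.68 ± 0.0419 in vehicle rats (SD, n = 4) and 9.58 ± 0.163 in treated rats (SD, n = 8). hnRNP genes have many near-identical copies in the genome, and probe sets of Hnrnpa1 and its relatives may share signal with them.

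**Figure D3:**
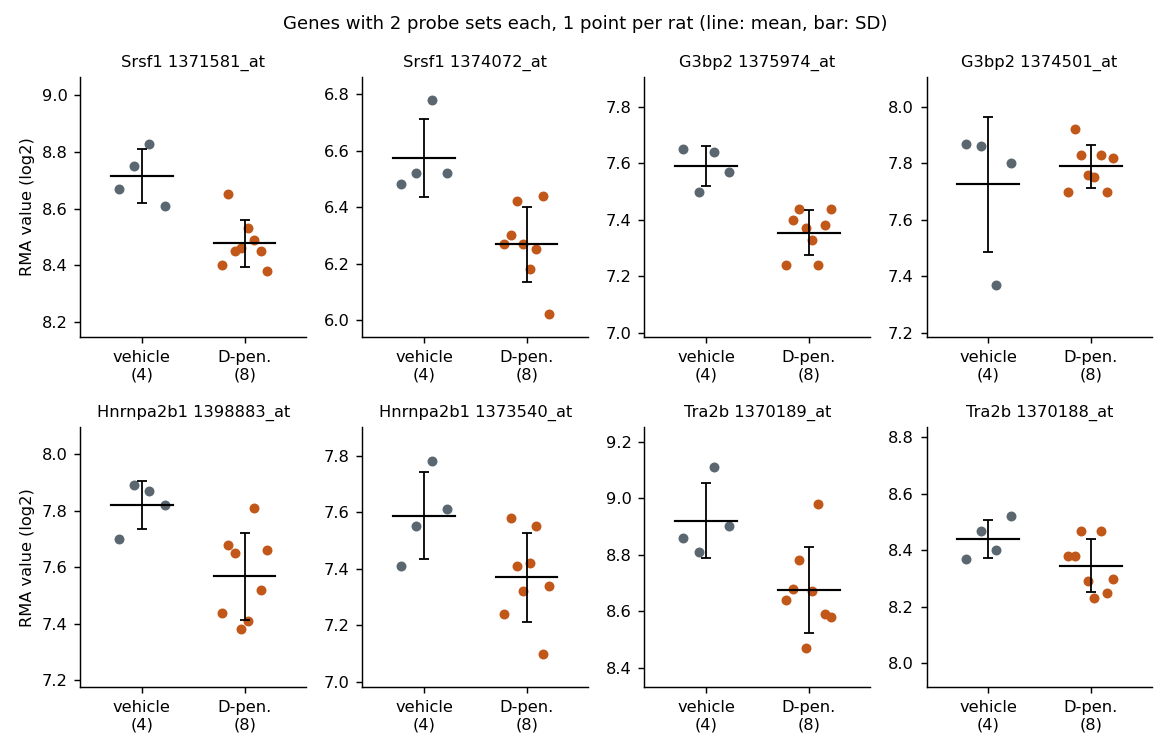
RMA values (log2) of Srsf1, G3bp2, Hnrnpa2b1 and Tra2b, each with 2 probe sets, 1 point per rat, with the group mean as a line and the SD as a bar; all panels span the same number of log2 units. Both probe sets of Srsf1 and Hnrnpa2b1 are lower in treated rats by similar amounts, while G3bp2 differs by -0.235 on 1 probe set and 0.0638 on the other.

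G3bp2, a stress granule protein that binds RNA and the deubiquitinase USP10, gave opposite signs on its probe sets. On 1375974_at vehicle rats 1 to 4 read 7.65, 7.50, 7.64 and 7.57, and treated rats 7.24 to 7.44 with a median of 7.375. No treated rat reached the vehicle range, and the difference was -0.235 (SE 0.0517, 95% interval -0.345 to -0.125), or 1.18-fold lower, with an adjusted p of 0.556 in limma. On 1374501_at vehicle rats 1 to 4 read 7.87, 7.86, 7.37 and 7.80, and treated rats 7.70 to 7.92 with a median of 7.79. Vehicle rat 3 alone lay below all others there. The difference of 0.0638 (SE 0.0808) became -0.0546 without that rat. The values of the 2 probe sets correlated at -0.219 over the 12 rats, and at -0.0615 with the group means removed, as a description.

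Its paralogue G3bp1 differed by -0.0863 (SE 0.0626) on 1372635_at, or -0.0321 without vehicle rat 2, and by -0.0275 (SE 0.0410) on 1370976_at. On 1370976_at the interval ran from -0.115 to 0.0600, with 8.47 to 8.56 in vehicle rats and 8.43 to 8.55 in treated rats.

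Both genes of cold-inducible proteins had 1 probe set. Cirbp read 5.39, 5.34, 5.27 and 5.37 in vehicle rats 1 to 4, and 5.37 to 5.58 in treated rats with a median of 5.455. All 8 treated rats lay above the vehicle mean, 1 of them inside the vehicle range. The difference was 0.125 (SE 0.0450, 95% interval 0.0289 to 0.221), or 1.09-fold, with an adjusted p of 0.715 in limma, and 0.101 without vehicle rat 3 and 0.0945 with the 3' minus 5' control difference in the model (unadjusted p = 0.0593 and 0.0712 in limma). Rbm3 differed by -0.0525 (SE 0.0648, 95% interval -0.191 to 0.0859), with 5.57 to 5.70 in vehicle rats and 5.45 to 5.83 in treated rats. The difference between the 2 genes was not tested. Both genes read below the array medians of 6.30 to 6.35, where RMA gives no detection call.

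Of the 34 probe sets of the Rbm family, which groups proteins of many roles by their RNA-binding motif, 23 were lower and 11 higher, with a median of -0.0225. An unadjusted p under 0.05 was reached by 2 (5.88%, against 3.48% of all probe sets), both of Rbm39. For all others of the family the intervals included 0. On the higher side, Rbm15b, a subunit of the machinery that methylates adenosine in mRNA, differed by 0.134 (SE 0.0696) on 1390006_at and 0.0363 on its other probe set. Rbm10, a regulator of exon skipping, differed by 0.101 (SE 0.0533). Rbm33 differed by 0.116 (SE 0.116), with treated rats from 6.35 to 7.09. Rbm24, known for splicing in muscle, differed by 0.0525 (SE 0.0584) on 1375160_at and by -0.0238 to 0.0588 over its 4 probe sets. Rbm47, a cofactor of apolipoprotein B mRNA editing in the rat, read 9.02 ± 0.125 in vehicle rats (SD, n = 4) and 8.95 ± 0.133 in treated rats (SD, n = 8). None of these intervals excluded 0.

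Of 11 probe sets of SF3A and SF3B subunits 7 were lower and 4 higher, with a median of -0.0475, and none reached an unadjusted p under 0.05 (0%, against 3.48% lower and 2.68% higher of all probe sets). Sf3b2 read 8.58 ± 0.147 in vehicle rats (SD, n = 4) and 8.59 ± 0.140 in treated rats (SD, n = 8). Sf3a3, a subunit of SF3A, differed by -0.0750 (SE 0.0640). Sf3a1 had the highest difference of all members at 0.159 (SE 0.0976) on 1374668_at, where D-penicillamine rat 4 read 5.91 and the other treated rats 5.24 to 5.54, while its other probe set was at -0.0213. Without that rat the difference was 0.0936, below the 0.182 of Rbm33 and the 0.129 of Cirbp. Sf3b1, the subunit that clasps the branch point, differed by -0.0875 (SE 0.0853) and -0.0475 (SE 0.0603), and is named as the lowest of its family.

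Of 8 Snrp probe sets, 1 for each of 8 genes, 5 were lower and 3 higher, with a median of -0.0400 and a range of -0.0863 to 0.0188. None reached an unadjusted p under 0.05 (0%, against 3.48% lower and 2.68% higher of all probe sets). Snrpd2, an Sm protein and the brightest of these, differed by -0.0763 (SE 0.0881), and by 0.0388 without vehicle rat 3, which read 9.51 against 9.01 to 9.11 in the other vehicle rats. The Snrp median was -0.0002 without that rat and 0.0039 with array weights, so the sign of this family depends on the setting. The Sf3a median, over 3 probe sets, was 0.0213 without vehicle rat 1. The Sf3b median was 0.0050 and the Snrp median 0.0093 once vehicle rat 3 and D-penicillamine rat 4 were both left out. The Srsf, Hnrnp and Rbm medians stayed below 0 under the other scalings, array weights, the RNA quality covariate and without those 2 rats.

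For 20 genes more than 1 probe set was present, 49 probe sets in all. In 9 of these genes every probe set was lower, in 2 (Srsf6 and Rbm15b) every one was higher, and in 9 the signs were mixed. The spread within a gene was widest for Rbm39 (0.339) and G3bp2 (0.299) and narrowest for Hnrnpa2b1 (0.0338), Sf3b1 (0.0400) and Srsf6 (0.0450). The 2 probe sets of Srsf1 correlated at 0.771 over the 12 rats and those of Hnrnpa2b1 at 0.752, against 0.0797 for G3bp1 and -0.0222 to 0.187 for the 3 of Hnrnpu, given as descriptions. With the group means removed these were 0.401, 0.594, -0.0461 and -0.0236 to 0.188, so the group gap is part of the first 2. Averaging the probe sets of each gene left 6 of 69 genes lower at an unadjusted p under 0.05 (8.70%, against 3.49% of all genes in that fit). These were Srsf1 (-0.273, SE 0.0578), Rbm39 (-0.195, SE 0.0691), Hnrnpa2b1 (-0.234, SE 0.0738), Tra2b, Hnrnpa0 and Hnrnpr. G3bp2 and Hnrnpu were not among them. With the brightest probe set of each gene there were 5 (7.25%, against 3.57%), the same genes without Rbm39.

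**Figure D4:**
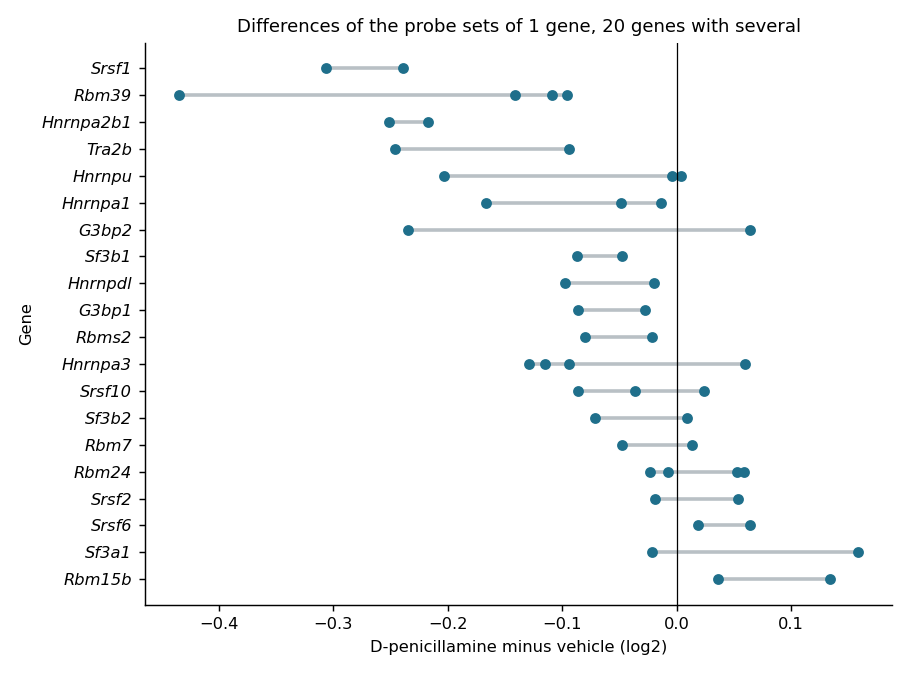
Differences between D-penicillamine and vehicle (log2) for the probe sets of the 20 genes that have more than 1; each point is a probe set and the grey bar joins the lowest and the highest of a gene. The bars of Srsf1 and Hnrnpa2b1 are short and lie wholly below 0, while those of G3bp2 and Hnrnpu reach past 0.

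Rat by rat, the members' median deviation from the vehicle mean was -0.0500, 0.0088, 0.0363 and 0.0038 in vehicle rats 1 to 4. In treated rats it ran from -0.133 in rat 1 to 0 in rat 6, with -0.103 in rat 4 and -0.0763 in rat 8. Vehicle rat 1 lay lower than 4 of the 8 treated rats, so the groups overlapped in this summary. The median of all probe sets stayed between -0.0275 and 0.0175 in every rat. The SD between rats was larger among treated than among vehicle rats in 68 of 98 members (69.4%, against 66.8% of all probe sets), so the wider spread is not particular to these genes.

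**Figure D5:**
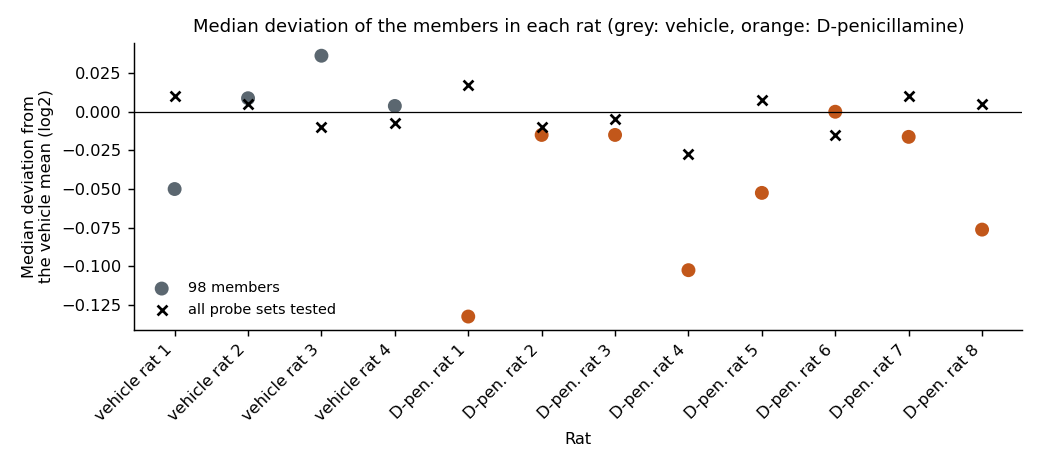
Median deviation of the 98 members (dots, grey for vehicle and orange for D-penicillamine) and of all 15866 probe sets (crosses) from the vehicle mean in each of the 12 rats, on the log2 scale. D-penicillamine rats 1, 4 and 8 are lowest at -0.133, -0.103 and -0.0763, and vehicle rat 1 at -0.0500 overlaps the treated rats.

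Vehicle rat 3 stood apart in RNA quality. Its 3' minus 5' difference of the Gapdh and beta-actin controls, which grows with degraded RNA, was 1.185 against 0.430 to 0.605 in the 11 others. The group means were 0.694 ± 0.330 in vehicle rats (SD, n = 4) and 0.511 ± 0.0597 in treated rats (SD, n = 8), with p = 0.103 in a two-sided exact permutation test over 495 splits. Without this rat, 11 members were lower at an unadjusted p under 0.05 (11.2%, against 2.67% of all probe sets) and 9 of them were among the 13. With this control difference added to the model there were 8 (8.16%, against 3.03%), of which 7 were among the 13, and Rbm39 1399101_at differed by -0.410 (SE 0.106) and G3bp2 1375974_at by -0.219 (SE 0.0587). All vehicle arrays were scanned before all treated ones, on 1 day and from 1 chip lot, so scan order and group cannot be told apart.

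Splicing genes outside the symbol rule were read by the brightest probe set of each gene. The list counts are from the fit over all probe sets, where 3.48% were lower and 2.68% higher at an unadjusted p under 0.05. In a separate fit with 1 such probe set per gene, 3.57% of all genes were lower and 2.63% higher. Among 49 measured core spliceosome genes 29 were lower and 19 higher (median -0.0125), with 3 lower and 0 higher at an unadjusted p under 0.05. The 3 were Lsm4, of the ring bound to U6 RNA, at -0.203 (SE 0.0801), the coactivator Srrm1 at -0.136 (SE 0.0599) and Zmat2 at -0.113 (SE 0.0498). Among 30 further splicing regulators 20 were lower and 10 higher (median -0.0300), with 2 at such a p in each direction. Celf2 was at -0.146 (SE 0.0495), and Syncrip and the polypyrimidine tract binding protein gene Ptbp1 at 0.128 (SE 0.0568) and 0.158 (SE 0.0706). Of 13 kinases and importers of SR proteins 5 were lower and 8 higher (median 0.0288), with none at such a p. The importin gene Tnpo3 was at -0.0838 (SE 0.0427), and the kinase genes Srpk1 and Clk3 at 0.0975 (SE 0.0694) and 0.104 (SE 0.0778). For Tnpo3 every treated rat (6.49 to 6.67) was below every vehicle rat (6.68 to 6.75). It was the only such gene of the 13, where 0.378% of all probe sets did so. Of 28 stress granule and mRNA stability genes 13 were lower and 14 higher (median 0.0056), also with none at an unadjusted p under 0.05. Ubap2l was at 0.0950 (SE 0.0547), Zfp36l1 at -0.205 (SE 0.129) and Zfp36l2 at 0.138 (SE 0.0954). No gene of these 4 lists passed the adjusted threshold.

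The tissue label was borne out by its markers, since the 10 measured hepatocyte genes averaged 10.1 to 14.9 on the log2 scale, with 5 lower and 5 higher. In a bulk sample, fewer cells of a type and less RNA per cell cannot be told apart. Of 9 Kupffer cell markers 7 were higher, 3 at an unadjusted p under 0.05, led by C1qc at 0.161 (SE 0.0666), and of 10 stellate cell markers 7 were lower, 3 at such a p, led by Lum at -0.203 (SE 0.0632). These counts are from the fit over all probe sets, where 2.68% were higher and 3.48% lower at such a p. Over all genes, 2.63% were higher and 3.57% lower in the fit with 1 probe set per gene. The summed Kupffer level was 11.7 to 11.9 in both groups (log2), and the stellate one 10.8 to 11.5 in vehicle and 11.1 to 11.3 in treated rats. Lum and Pdgfrb, both among the 3 stellate markers at such a p, read below the median probe set. Col3a1, the brightest stellate marker and 1 of the 3 that were higher, was at 0.0825. Of 5 endothelial markers 4 were lower and of 10 lymphocyte and neutrophil markers 8 were higher, with none at such a p, and 9 of those 10 read below the median probe set. Their summed levels were 10.4 to 10.7 and 8.65 to 8.85 in vehicle rats and 10.3 to 10.6 and 8.74 to 8.92 in treated rats. Of 4 bile duct markers 2 were higher, 1 of them (Krt7) at such a p, and 2 were lower, with 0 at such a p. Krt7 was at 0.146 (SE 0.0627), Krt19 at -0.13 (SE 0.0883) and Epcam at -0.1 (SE 0.118). Krt7 and Krt19 read below the median probe set. Of the red cell genes 3 of 3 were higher, with none at such a p. Slc4a1 was at 0.0588 (SE 0.0549), Alas2 at 0.0938 (SE 0.294) and Hbb at 0.0363 (SE 0.193). For Alas2 and Hbb, 4 treated rats lay above the vehicle mean and 4 below. The summed bile duct and red cell levels were 8.04 to 8.44 and 12.7 to 13.7 in vehicle rats. In treated rats these levels were 8.12 to 8.36 and 12.8 to 13.8. The part of other cell types in the members' differences was not tested.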

How the data were processed

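The deposited table holds RMA values on the log2 scale for 15923 probe sets on 12 arrays, per the submitters' processing notes and the file headers. RMA corrects background, normalizes by quantiles and summarises probes, so a shift common to most transcripts would not show. Its version is not given in the sources used here. Scan records of other values, such as chip lot and scan time, were deposited too and are not measurements.

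Control probe sets (57) were dropped before testing. Of the remaining 15866 probe sets 12783 have 1 symbol, 312 several and 2771 none in the platform annotation. Member symbols were the same in the GRCr8 gene table. Groups came from the titles, and rats are biological replicates. The number of arrays limits the precision.

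The groups were compared in limma 3.58.1 (R 4.3.3; lmFit and eBayes, two-sided), with Benjamini-Hochberg adjustment over all probe sets and a threshold of 0.05. The fit was also run on simulated data with added shifts, all larger than any member difference. That run does not show how the fit performs on differences as small as those of the members. Differences are D-penicillamine minus vehicle.

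The members and lists were chosen with earlier results of these data known. Named in full are all probe sets of Rbm39, G3bp1, G3bp2, Tra2a, Tra2b, Cirbp and Rbm3, the 8 members per direction with the smallest p and the brightest of each family, plus up to 3 genes of each list. Alternatives were scaling, array weights, variance trend, an RNA quality covariate, the brighter probe sets, 1 value per gene, leaving out rats and a block on rat number.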

Additional observations from a re-analysis of the deposited data

Results flagged for a closer look

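The 31 member probe sets given in full and the 3' minus 5' control difference were searched for single outlying rats. The cutoff is passed by chance in about 1 in 20 groups that are independent. These groups share rats and genes, so their count is not set against that rate. By the gap to the nearest rat over the group's range, 7 of 64 groups held 1 rat far from the rest of its group. Vehicle rat 3 accounts for 3 of them, with 6.78 on Srsf1 1374072_at (6.48 to 6.52 in the others), 7.37 on G3bp2 1374501_at (7.80 to 7.87) and a control difference of 1.185 (0.495 to 0.585). On Srsf1 the treated rats were below the other 3 vehicle rats too. Vehicle rat 2 read 6.96 on G3bp1 1372635_at (6.73 to 6.76), and vehicle rat 1 read 5.57 on Rbm3 (5.69 to 5.70). D-penicillamine rat 4 read 5.91 on Sf3a1 1374668_at (5.24 to 5.54), and D-penicillamine rat 1 read 8.25 on Hnrnpa3 1374405_at (8.40 to 8.51). The causes were not tested.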

How the results depend on the processing

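The count of members past the adjusted threshold stayed at 0 in all 23 alternative settings, in limma. The count with an unadjusted p under 0.05 in the lower direction, 13 as reported, was 11 to 14 on leaving out each rat, and 8 with the 3' minus 5' covariate. It was 5 with the brightest probe set and 6 with the mean of each gene's probe sets, where 69 features in place of 98 were counted. The higher count, 1 as reported, was 0 to 2 on leaving out each rat. It was 0 on the brighter probe sets, where Cirbp is not tested, 3 with array weights, and 0 with the replicate block over rat numbers 1 to 4. The median of the members ran from -0.0584 to -0.0295 on leaving out each rat, and from -0.0588 to -0.0275 in the other settings. The labels do not say that rats of the same number are paired. Same-numbered rats' deviations correlated at 0.210, -0.151, 0.186 and -0.145, too few values to decide this. The replicate block, which also drops D-penicillamine rats 5 to 8, gave 15 lower members and 0 higher. The same 8 rats without the block, a setting added after seeing the data, gave 12 and 0.

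Rbm39 1399101_at stayed between -0.465 and -0.362, and its adjusted p between 0.113 (array weights) and 0.969. G3bp2 1375974_at stayed between -0.265 and -0.201. Among the members given in full, signs turned only for the 6 probe sets listed here. With vehicle rat 3 and D-penicillamine rat 4 both left out, Srsf6 1372075_at was -0.0119, Rbm24 1375160_at -0.00095, Snrpd2 0.0429 and G3bp2 1374501_at -0.0505. With the covariate, Snrpd2 was 0.0528, G3bp2 1374501_at -0.0506 and Srsf2 1371838_at 0.0128. With array weights, Snrpd2 was 0.0060 and Srsf2 1371838_at 0.0097. Sf3b2 1388614_at was -0.0350 with the block, and -0.0350 on the same rats without it. On leaving out each rat, Snrpd2 ran from -0.128 to 0.0388, G3bp2 1374501_at from -0.0546 to 0.112, Srsf2 from -0.0404 to 0.0125 and Sf3b2 from -0.0613 to 0.0454. The cause was not tested. RMA gives no detection call, so what dim probe sets can show is limited.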
